A study of Mus musculus with 6 samples.

Results

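Integrins and laminins were described in heart muscle of 3 sham mice and of 3 mice after tail-suspension. The genes were taken by a rule on gene names, chosen with earlier results of these data known. It took every non-control probe named for an integrin alpha chain (Itga), an integrin beta chain (Itgb) or a laminin chain (Lama, Lamb or Lamc). The rule found 37 of the 36163 gene names on the array, 26 of them integrins and 11 laminins, read by 50 of 55681 probes. Male C57BL/6 mice, 10 weeks old when suspension began, were held by the tail for 28 days with the hindlimbs off the floor, a model of weightlessness. The sham mice lived in the same space without suspension, and the labels name no genotype or drug in either group. The sample labels also give an age of 11 weeks, which is too low for an animal killed 28 days after the age of 10 weeks. Each of the 3 mice that the design names in a group gave cardiac muscle RNA for 1 Agilent array of 1 colour. The comparison asks which genes of the heart are expressed differently after simulated weightlessness.

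Integrins are receptors of the cell surface made of 1 alpha and 1 beta chain, and they tie the matrix outside the cell to the actin cytoskeleton inside it. Laminins are trimers of an alpha, a beta and a gamma chain, and they form the sheet of the basement membrane that surrounds each cardiomyocyte and lines each capillary. In heart muscle, integrins at the costameres hold the contractile apparatus to this laminin sheet and take part in sensing mechanical load.

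Probes of 4 genes are shown because the results below turn on them. Itgb6 and Lamc3 had the lowest fitted differences, Itgb1 is the beta chain shared by most matrix integrins, and the probes of Itgam disagreed. The difference of Lamc3 rests on tail-suspension signals too dim to measure, so only a bound is given for it below. The sequences are those in the scanner files, and their positions are on mm9. The brighter Itgb6 probe lies at chr2:60438632-60443247 on the minus strand, a span longer than the probe, which places it across an exon junction. The other Itgb6 probe lies at chr2:60492788-60492847 on the minus strand. The brighter Itgb1 probe lies at chr8:131250081-131255976 on the plus strand and likewise spans a junction. For Lamc3 (chr2:31801996-31802055, plus strand) only bases 31 to 60 are printed, with AATAAA, the usual polyadenylation signal, in capitals. For the 3 Itgam probes, all on the plus strand of chromosome 7, only the first 30 bases are printed, with a run of the dinucleotide CA in capitals where there is one. They lie at chr7:135261755-135261814 (the brightest), chr7:135212140-135212199 (the second) and chr7:135260275-135260334 (the last).
Itgb6, brighter probe: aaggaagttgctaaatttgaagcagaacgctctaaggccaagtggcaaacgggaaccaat
Itgb6, other probe: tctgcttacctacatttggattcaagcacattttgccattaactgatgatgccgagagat
Itgb1, brighter probe: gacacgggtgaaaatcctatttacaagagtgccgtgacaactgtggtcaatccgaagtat
Lamc3: ctgaggaAATAAAggacccttttcctgtgc
Itgam, brightest probe: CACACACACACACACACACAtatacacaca
Itgam, second probe: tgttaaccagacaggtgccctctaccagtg
Itgam, last probe: aagttcacaatcctgtaccactcattgtgg
On the probe's own strand, AATAAA was found in 9 of the 50 integrin and laminin probes (18%) and in 10.1% of the 55632 probes of the array with a sequence. The files do not say which exon or untranslated part a probe covers.

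The brightness of a spot is given as a processed intensity, which the scanner software has already corrected for background. For testing, each log2 intensity was scaled to the 75th percentile of its array, which lay between 302 and 322 in sham and between 341 and 376 in tail-suspension. An unchanged gene therefore has a somewhat higher intensity in tail-suspension, and differences between the groups, with their standard error (SE), are given only on the scaled log2 level. An array had between 50.9% and 53.4% of its probes well above background. All 6 arrays lay on 1 slide, where tail-suspension replicate 1 shared a row with the 3 sham arrays and the other row held tail-suspension replicates 2 and 3. All 10 cardiomyocyte markers examined, among them Myh6 and Tnnt2, were well above background on all 6 arrays. In whole heart muscle, fewer cells of a type and less RNA per cell cannot be told apart.

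Of the 37 genes, 31 could be tested, because their brightest probe was well above background throughout sham, throughout tail-suspension or both. The remaining 6 were Itga2, Itga2b, Itgad, Itgae, Itgb8 and Lama1. Past an adjusted p of 0.05 (limma with Benjamini-Hochberg adjustment over all 28032 tested probes), 3 genes were higher after tail-suspension, among them Itgb3 and Itgb5. Another 7 were lower, namely Itga1, Itga6, Itga7, Itga9, Itga11, Itgb6 and Lamc3, and 21 did not pass. The share of higher genes was 9.68%, near the 10.5% of all 20668 tested gene names, and the share of lower genes was 22.6% against 9.8%. Lamc3 was well above background in sham only, and the filter on dim probes let it through by the group in which it was high. Among the 30 genes well above background on all 6 arrays, 3 passed as higher and 6 as lower. Under that filter 2847 probes of the array passed as higher and 2607 as lower. Of the probes with a sequence, 26221 were well above background on all 6 arrays. Of the 21 integrins tested, 2 were higher and 6 lower. The median difference of the 31 genes was -0.089 on the log2 scale, against -0.0076 over all tested gene names, and the median size without its sign was 0.32 against 0.23. In 16 of the 31 genes (51.6%) the arrays of the groups did not overlap, against 44.7% of all tested gene names. No test of the list as a whole was made. With 3 arrays a group, 0.1 is the smallest two-sided p of the exact permutation test, and every gene whose groups did not overlap has that value. Read by probe, 4 of the 40 tested integrin and laminin probes were higher (10.8% of all tested probes) and 8 were lower (9.57%).

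**Figure D1:**
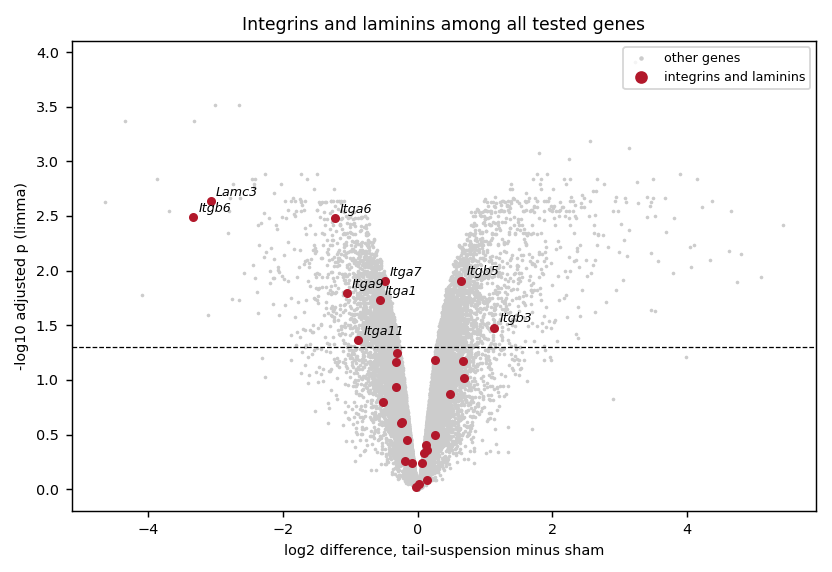
Log2 difference (tail-suspension minus sham, x axis) against -log10 of the limma adjusted p (y axis) for every tested gene, with 30 integrins and laminins as red points and other genes in grey; the dashed line marks an adjusted p of 0.05. The 9 named points lie above the line, with Itgb6 and Lamc3 farthest to the left at -3.34 and -3.07. The position of Lamc3 is that of the fit, because its tail-suspension levels are not well above background.

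**Figure D2:**
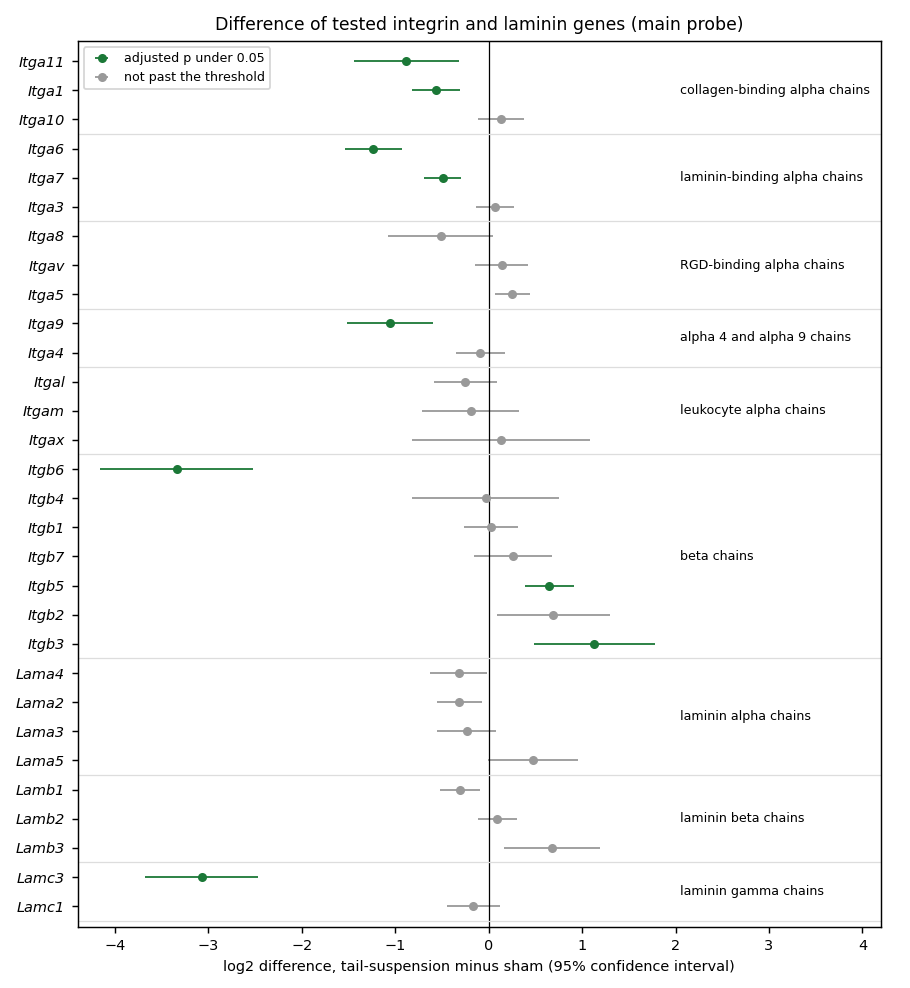
Log2 difference (tail-suspension minus sham, x axis) of 30 tested genes with its 95% confidence interval, grouped by the role of the chain; green points pass an adjusted p of 0.05 by limma and grey points do not. The collagen-binding and laminin-binding alpha chains hold 4 of the 7 falls, and the beta chains Itgb5 and Itgb3 are the rises drawn.

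Of the 3 alpha chains that bind laminin, 2 fell. Itga6, a laminin receptor of endothelial and epithelial cells, had processed intensities of 7379, 7232 and 8467 in sham and 3948, 3884 and 3513 in tail-suspension. Each tail-suspension array lay well below each sham array. The log2 level of Itga6 was 4.61 ± 0.17 in sham (SD, n = 3) and 3.38 ± 0.15 after tail-suspension (SD, n = 3), which makes a difference of -1.23 (SE 0.13, limma adjusted p = 0.00333), or 2.35-fold lower. Itga7 codes for the alpha chain of the main laminin receptor of adult heart and skeletal muscle. Its intensities were 25750, 23500 and 23120 in sham and 19220, 20430 and 19890 in tail-suspension. The arrays of each group lay close together, and a fall of 1.41-fold stood clear of their spread. The log2 difference of Itga7 was -0.49 (SE 0.08, limma adjusted p = 0.0125), which missed the threshold without tail-suspension replicate 3 (adjusted p = 0.0508). Itga3, a laminin receptor found mostly on epithelia, had a difference of 0.07 with a 95% confidence interval from -0.13 to 0.27 (adjusted p = 0.58 by limma), and its groups overlapped.

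Of the 3 tested alpha chains that bind collagen, Itga11 and Itga1 fell. Itga11, a receptor for fibrillar collagen on fibroblasts, had intensities of 692, 600 and 491 in sham and 247, 402 and 509 in tail-suspension. After scaling every tail-suspension array was still below every sham array, but the arrays of tail-suspension were spread widely, with replicate 1 lowest and replicate 3 close to sham. The log2 difference of Itga11 was -0.88 (SE 0.24, limma adjusted p = 0.0433). The call was lost without sham replicate 1, 2 or 3 (adjusted p = 0.121, 0.122 and 0.0659) and without tail-suspension replicate 1 or 2 (0.0684 and 0.0697). Itga1, a collagen receptor of vessels and mesenchymal cells, had intensities of 532, 545 and 519 in sham and 430, 447 and 375 in tail-suspension. The sham arrays almost coincided and all lay above the tail-suspension arrays. The log2 difference of Itga1 was -0.56 (SE 0.11, limma adjusted p = 0.0187), lost without sham replicate 1 (0.0546) or sham replicate 2 (0.0714). The dimmer Itga1 probe changed by -0.25 and did not pass (adjusted p = 0.149), with overlapping groups. Itga10, a collagen receptor best known from cartilage, changed by 0.13 (adjusted p = 0.397). Its probes share 54 bases and are not separate readings. Itga2, the collagen receptor of platelets, was not well above background on any array.

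Itga9 belongs with Itga4 to a small branch of alpha chains, and its receptor binds tenascin and lymphangiogenic growth factors. Its intensities were 1086, 1390 and 1387 in sham and 833, 590 and 737 in tail-suspension. All tail-suspension arrays lay below all sham arrays. The level of Itga9 was 2.03 ± 0.24 in sham (SD, n = 3) and 0.97 ± 0.32 after tail-suspension (SD, n = 3), which makes a log2 difference of -1.05 (SE 0.19, limma adjusted p = 0.0162). Without sham replicate 2 (adjusted p = 0.0642) or tail-suspension replicate 3 (0.0541) it did not pass. Itga4, a chain of leukocyte homing receptors, differed by -0.09 with an interval from -0.35 to 0.17 (adjusted p = 0.581). Its second probe was not well above background on any array.

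None of the 3 tested alpha chains that recognise the RGD motif of fibronectin, vitronectin or nephronectin passed (limma, adjusted), and 1 was higher at an unadjusted p under 0.05. Itga5, the alpha chain of the fibronectin receptor, had log2 levels of -0.38, -0.47 and -0.40 in sham and -0.17, -0.13 and -0.19 in tail-suspension. These groups did not overlap, and the difference was 0.25 (SE 0.08, limma adjusted p = 0.0659). Itga8, a nephronectin receptor, differed by -0.51 with an interval from -1.07 to 0.05 (adjusted p = 0.159). Itgav, the partner of the beta chains Itgb3, Itgb5, Itgb6 and Itgb8, differed by 0.14 with an interval from -0.15 to 0.42 (adjusted p = 0.439), and by 0.05 on its dimmer probe. Itga2b, the alpha chain of the platelet fibrinogen receptor, had intensities of 6.6, 6.8 and 14.0 in sham and 26.1, 11.1 and 29.8 in tail-suspension. It was well above background on tail-suspension replicates 1 and 3 alone, so it was not tested.

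The beta chains held both the largest fall and the largest rise of all integrins. Itgb6 pairs with Itgav into a receptor of epithelia that releases TGF-β from its latent form. Its brighter probe, the junction probe printed above, had intensities of 997, 907 and 821 in sham and 123, 153 and 59.1 in tail-suspension. The sham arrays lay close together, and the highest tail-suspension array was far below the lowest of them. The log2 level of Itgb6 was 1.53 ± 0.09 in sham (SD, n = 3) and -1.81 ± 0.74 after tail-suspension (SD, n = 3), which makes a difference of -3.34 (SE 0.34, limma adjusted p = 0.00326), or 10.1-fold lower. Under normexp the difference was -2.67. The other probe of Itgb6, at the far end of the gene, had intensities of 50.5, 57.7 and 42.3 in sham and 3.1, 4.5 and 4.1 in tail-suspension. None of the tail-suspension arrays read it well above background, so only a bound holds there: Itgb6 was at least 3.45-fold lower by this probe (measured means -2.66 and -6.57, adjusted p = 0.000302 by limma). For such a bound the dim arrays are held at their own signal or, where that is higher, at the dimmest signal that still counted as well above background on the array. Of 10 epithelial and mesothelial markers, 3 were tested and none passed by limma (1 higher at an unadjusted p under 0.05). Of all tested gene names, 10.5% passed as higher and 9.8% as lower. Cdh1, Epcam, Krt19 and Upk3b were not well above background on any array. The summed level of the list, relative to the 75th percentile, was 1.57 to 2.24 in sham and 1.84 to 2.92 in tail-suspension, and without its brightest gene, Wt1, 0.31 to 0.43 and 0.44 to 0.74.

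Itgb5 and Itgb3 rose. Itgb5 joins Itgav in a vitronectin receptor. Its intensities were 9842, 8124 and 8120 in sham and 13670, 17550 and 16210 in tail-suspension. The groups were clearly apart, with a log2 difference of 0.65 (SE 0.11, limma adjusted p = 0.0123), or 1.57-fold higher. Without sham replicate 2 the adjusted p of Itgb5 was 0.052. Itgb3 is the beta chain of the platelet fibrinogen receptor and, with Itgav, of a vitronectin receptor of vessels and macrophages. Its intensities were 143, 174 and 189 in sham and 489, 287 and 541 in tail-suspension. Every tail-suspension array was higher, with replicates 1 and 3 well above replicate 2. The log2 difference of Itgb3 was 1.13 (SE 0.27, limma adjusted p = 0.0333), or 2.19-fold higher. The call was lost without any 1 of the 3 sham arrays (adjusted p between 0.0559 and 0.0983), without tail-suspension replicate 1 (0.0885) and without tail-suspension replicate 3 (0.0976). The second Itgb3 probe was not well above background on any array.

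The 6 tested markers of platelets were, like Itgb3, higher on tail-suspension replicates 1 and 3 than on replicate 2. This order was not particular to platelets, as the neutrophil marker S100a8 and the basement membrane partner Ntn1 had it too. Ppbp, a platelet chemokine, had intensities of 89.7, 80.5 and 88.5 in sham and 273, 122 and 267 in tail-suspension, and Treml1 66.8, 36.4 and 61.1 in sham and 156, 65.8 and 169 in tail-suspension. Of 9 platelet and megakaryocyte markers, 6 were tested and none passed (limma, adjusted), beside 10.5% higher and 9.8% lower of all tested gene names. At an unadjusted limma p under 0.05, 3 were higher, and the differences ran from -0.22 for Pf4 to 1.06 for Clec1b. Gp1ba and Gp5 were not well above background on any array, and the summed level of the list was 9.17 to 11.4 in sham and 7.2 to 11.8 in tail-suspension, most of it Pf4. Without Pf4 it was 0.64 to 0.89 in sham and 0.88 to 2.04 in tail-suspension, and the median difference of the 6 tested markers was 1.01. Their part in the rise of Itgb3 was not tested.

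Itgb1 is the partner of most alpha chains in the matrix receptors of the heart. Its brighter probe had log2 levels of 2.27, 2.09 and 2.28 in sham and 2.37, 2.03 and 2.30 in tail-suspension. The groups lay on top of each other, and the difference was 0.02 with an interval from -0.26 to 0.31 (adjusted p = 0.896), a sign that turned without sham replicate 2, tail-suspension replicate 1 or tail-suspension replicate 3. By the dimmer Itgb1 probe the difference was 0.11 (adjusted p = 0.541). Itgb4, which pairs with Itga6 in the hemidesmosomes of epithelia, differed by -0.03 with a wide interval from -0.82 to 0.76 (adjusted p = 0.954). Itgb8, a further partner of Itgav, was not well above background on any array. The interval of Itgb1, the partner of Itga1, Itga6, Itga7, Itga9 and Itga11, thus included 0, whereas whether an alpha chain and its partner differed in their change was not tested.

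Leukocyte integrins did not pass by their brightest probes (limma, adjusted). Itgb2, the beta chain common to the leukocyte receptors of the Itgal, Itgam, Itgax and Itgad chains, had intensities of 160, 117 and 129 in sham and 261, 177 and 341 in tail-suspension. After scaling, replicate 2 of tail-suspension fell within the range of sham while replicates 1 and 3 were above it. The log2 difference of Itgb2 was 0.69 with an interval from 0.09 to 1.30 (adjusted p = 0.0954 by limma), and it was 0.97 without tail-suspension replicate 2 (adjusted p = 0.0157). With other arrays left out, the difference of Itgb2 was as low as 0.49, with a limma adjusted p of up to 0.247. Itgad, found on some macrophages, had intensities of 7.0, 5.5 and 5.1 in sham and 25.6, 10.2 and 33.9 in tail-suspension, well above background on tail-suspension replicates 1 and 3 alone, and was not tested. Itgal, the alpha chain of a lymphocyte receptor for ICAM proteins, differed by -0.25 (adjusted p = 0.246), and its dimmer tested probe by -0.08. Itgax, a marker of dendritic cells and some macrophages, differed by 0.13 with an interval from -0.82 to 1.09 (adjusted p = 0.829), and its sign turned under normexp, with the slide row as a block, without sham replicate 2 and without tail-suspension replicate 3. Itgb7, a chain of gut-homing lymphocyte receptors, differed by 0.26 (adjusted p = 0.321), and its partner Itgae was not well above background on any array.

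Itgam codes for the alpha chain of the complement receptor of neutrophils and macrophages, and its probes disagreed. The brightest probe had intensities of 10430, 12640 and 13140 in sham and 10130, 17240 and 10290 in tail-suspension, a log2 difference of -0.19 (adjusted p = 0.547 by limma). The second probe, far upstream, had intensities of 43.7, 49.4 and 34.2 in sham and 65.0, 94.1 and 83.0 in tail-suspension. By this second probe, Itgam rose by 0.72 (SE 0.15, limma adjusted p = 0.0245), with no overlap of the groups. That call was lost without sham replicate 1 (adjusted p = 0.0681), sham replicate 3 (0.0521) or tail-suspension replicate 3 (0.0752), and under normexp the difference was 0.21 (adjusted p = 0.164). The last probe differed by 0.15 (adjusted p = 0.544).

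The brightest Itgam probe begins with 10 units of CA, as printed above. Runs of at least 9 CA units were found in 26 of the 55632 probes with a sequence (0.0467%), each for another gene name. Their median intensity over the arrays was 9715, against 18.8 for all probes, and all 26 were well above background on all 6 arrays. Their log2 differences lay between -0.23 and -0.10, and none of them passed. All 26 were higher on tail-suspension replicate 2 than on replicate 1, by 0.60 to 0.88 on the log2 processed intensity before scaling, as the Itgam probe was. Part of this gap is that of the arrays, whose 75th percentiles were 376 and 341. After scaling, the Itgam probe lay at 5.52 on replicate 2 and 4.89 on replicate 1. What these probes bind was not tested, and the difference of -0.19 is given as that of the probe alone.

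**Figure D3:**
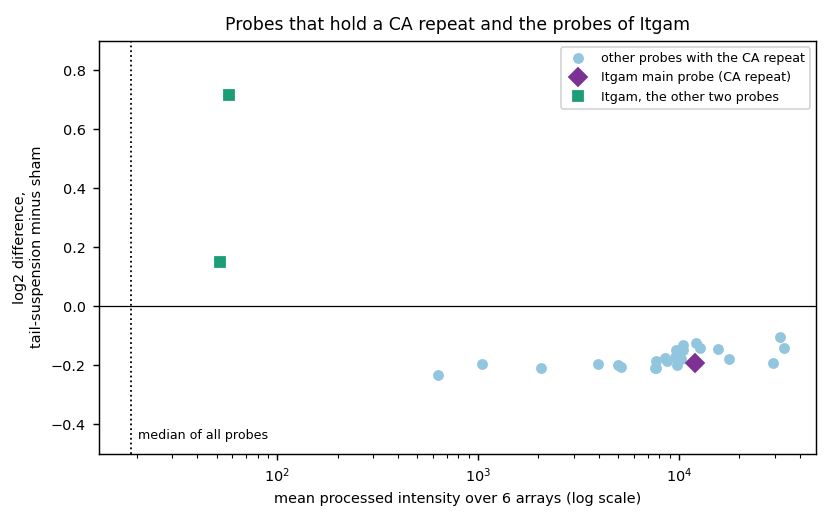
Mean processed intensity over 6 arrays (x axis, log scale) against the log2 difference, tail-suspension minus sham (y axis), for the 26 probes that hold at least 9 CA units in a row and for the 3 Itgam probes; the dotted line marks the median intensity of all probes. The probes with the repeat lie between -0.23 and -0.10 at intensities from 636 to 33340, whereas the other Itgam probes lie near an intensity of 50 and above 0.

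Markers of leukocytes are given beside these chains, and beside their counts stand 10.5% higher and 9.8% lower among all tested gene names. Of 11 neutrophil markers on the array, 8 were tested, and 5 rose and none fell past the limma threshold (7 higher and 1 lower at an unadjusted p under 0.05). S100a8, a calgranulin of neutrophils, had intensities of 55.5, 43.3 and 29.0 in sham and 3383, 550 and 1261 in tail-suspension. The summed level of the neutrophil list was 144 to 172 in sham and 208 to 238 in tail-suspension, most of it Csf3r, which did not pass (adjusted p = 0.0926). Without Csf3r it was 1.78 to 2.2 in sham and 9.24 to 53.1 in tail-suspension, while Ltf, Retnlg and Mpo, 3 of the 5 that rose, were well above background in tail-suspension only and were tested through it. Of 11 tested macrophage and monocyte markers, 1 rose (Cd163) and 1 fell (Cx3cr1), with a summed level of 26.6 to 35.1 in sham and 27.7 to 42.6 in tail-suspension. Of 7 tested T, B and NK cell markers, 1 rose and 2 fell, with summed levels of 5.06 to 5.56 and 4.35 to 4.95, and Cd3g, Cd8a, Cd8b1 and Klrb1c were not well above background on any array. The part of these cells in the levels of Itgb2, Itgam and Itgad was not tested.

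**Figure D4:**
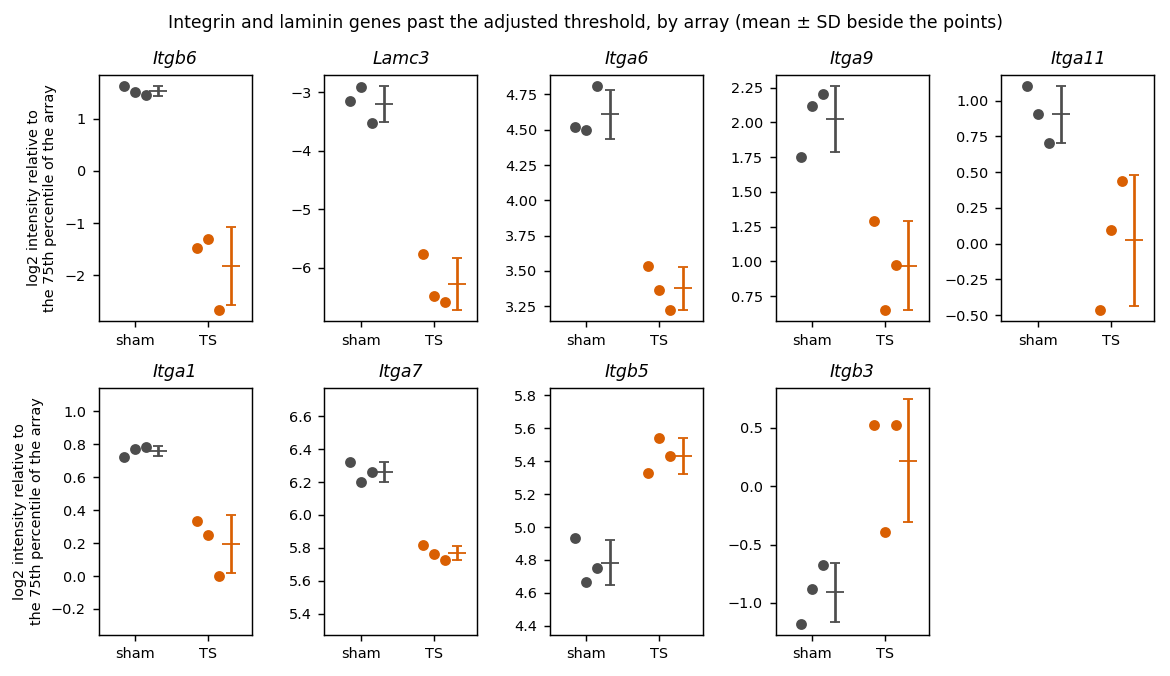
Log2 processed intensity relative to the 75th percentile of the array (y axis, a separate scale in each panel) for 9 integrin and laminin genes past an adjusted p of 0.05; each point is 1 array, TS is tail-suspension, and the bars beside the points give the mean and SD of 3 arrays. In each panel the groups do not overlap, and the spread within tail-suspension is widest for Itgb6, Itgb3, Itga11 and Lamc3, where the levels of Lamc3 in tail-suspension are not well above background.

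The laminin chains that form the basement membrane of adult heart muscle and its vessels did not pass by limma after adjustment, although Lama2 (adjusted p = 0.033) and Lamb1 (0.0238) did so with an intensity trend and robust eBayes. Of the 4 tested alpha chains, 2 were lower at an unadjusted p under 0.05, and of the 3 beta chains, 1 was lower and 1 higher. Lama2, the alpha chain of the muscle laminin whose loss causes a muscular dystrophy, had log2 levels of 4.51, 4.37 and 4.61 in sham and 4.12, 4.15 and 4.28 in tail-suspension. The groups did not overlap, and the difference was -0.32 (SE 0.10, limma adjusted p = 0.0687), with -0.31 on the second probe. Lamb1, a widespread beta chain, had levels of 4.66, 4.74 and 4.57 in sham and 4.29, 4.33 and 4.43 in tail-suspension. Again without overlap, its difference was -0.31 (standard error 0.09, adjusted p = 0.0566). Lama4, the laminin alpha chain of capillaries, differed by -0.32 (adjusted p = 0.117) without overlap. Lamc1, the gamma chain of nearly all laminins of muscle and vessels, differed by -0.16 with an interval from -0.45 to 0.12 (adjusted p = 0.351). Lamb2, a beta chain of the neuromuscular junction and vessels, differed by 0.09 (adjusted p = 0.466). Lama5, a broadly used alpha chain, differed by 0.47 with an interval from -0.01 to 0.96 (adjusted p = 0.136). Lama1, the alpha chain of the embryonic laminin, was not well above background on any array.

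Lama3 and Lamb3 are chains of laminins of epithelia, and neither passed. Lamb3 had intensities of 904, 546 and 616 in sham and 1144, 1084 and 1551 in tail-suspension. The groups of Lamb3 did not overlap, but sham replicate 1 lay apart from the other sham arrays, and the log2 difference was 0.68 (SE 0.21, limma adjusted p = 0.067). Without sham replicate 1 the difference of Lamb3 was 0.87 (adjusted p = 0.0451), and Lamb3 also passed under normexp (0.0299) and with an intensity trend and robust eBayes (0.0437). With other arrays left out, its difference was as low as 0.51, with a limma adjusted p of up to 0.183. Lama3 differed by -0.23 with an interval from -0.55 to 0.08 (adjusted p = 0.241), and its second probe was not well above background on any array.

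Lamc3, a gamma chain of laminins in nerve, retina and other tissues, fell. Its probe had intensities of 36.1, 42.3 and 26.1 in sham and 6.3, 4.2 and 3.9 in tail-suspension. It was well above background on all 3 sham arrays and on no tail-suspension array. By the bound, Lamc3 was at least 2.37-fold lower (measured log2 means -3.20 and -6.27, adjusted p = 0.00231 by limma), and the fitted difference of -3.07 is no measured fold. Under normexp, which lifts dim signals by an offset, the difference was -0.80 and still passed. Of 8 tested Schwann and glial markers, 1 rose and 1 fell (beside 10.5% and 9.8% of all tested gene names). Their summed level was 7.95 to 10.2 in sham and 7.41 to 9.78 in tail-suspension. Gfap was not well above background on any array.

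Of the genes with more than 1 tested probe, most had the same call by each. In Itga10, Itgal, Itgav, Itgb1 and Lama2 no probe passed, and in Itgb6 both passed as lower. The dimmer Itgb6 probe was tested through sham alone, with no tail-suspension array well above background. Itga1 and Itgam were the genes in which 1 probe passed and another did not. The remaining genes with several probes, Itga4, Itgb3 and Lama3, had 1 tested probe each.

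**Figure D5:**
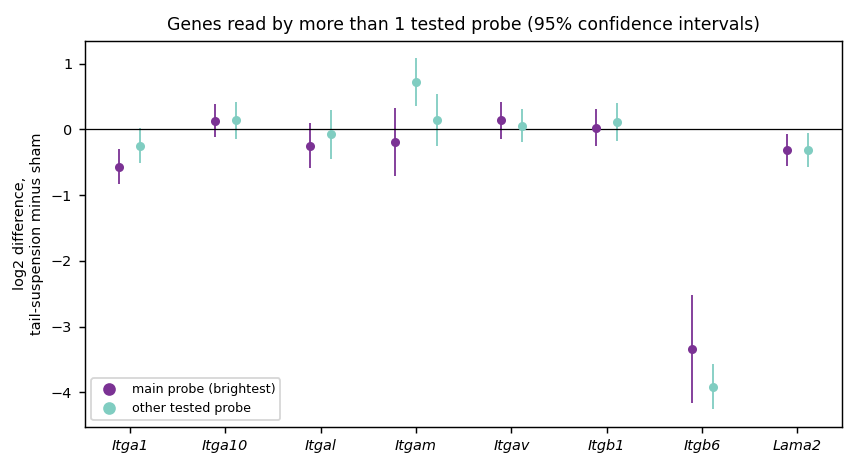
Log2 difference, tail-suspension minus sham (y axis), of each tested probe of the 8 genes with more than 1 tested probe, with 95% confidence intervals; purple marks the brightest probe of the gene. Both Itgb6 probes lie below -3, of which the dimmer is not above background in tail-suspension, and the Itgam probes lie on either side of 0.

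The row of the slide and the group cannot be fully told apart, since tail-suspension replicate 1 alone shares a row with the sham arrays. Within that row, the log2 difference between this array and the sham mean was -3.0 for Itgb6, -1.08 for Itga6, -1.37 for Itga11, -0.74 for Itga9, -0.44 for Itga7 and -0.42 for Itga1. It was 1.43 for Itgb3 and 0.54 for Itgb5. These 8 kept their direction, and Lamc3 was not well above background on this array, so it has no measured difference there. With the row as a block, which rests on that 1 array, Lamc3 (adjusted p = 0.0211 by limma) and Itga11 (0.0498) passed. Itgb6 (0.0533), Itga6 (0.0535), Itgb3 (0.124), Itga7 (0.141), Itgb5 (0.143), Itga9 (0.162) and Itga1 (0.19) did not. The other row holds tail-suspension arrays only and gives no value.

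The proteins inside the cell that couple integrins to actin were read from a list of 33 adaptors and kinases, of which 31 were tested. Of these, 4 rose and 5 fell (12.9% and 16.1%, against 10.5% and 9.8% of all tested gene names), with a median difference of -0.11. Among the genes past the threshold, the largest rises were those of Fermt3, the kindlin of blood cells, by 0.87 (SE 0.20, limma adjusted p = 0.0301), Parvg, the parvin of blood cells, by 0.71, and Tns1, a tensin of adhesion sites, by 0.61. Fermt3 had intensities of 41.8, 39.7 and 41.0 in sham and 81.8, 66.7 and 118 in tail-suspension. The largest falls were those of Dab2, an endocytic adaptor, by -0.72, Ptk2, the focal adhesion kinase, by -0.62, and Itgb1bp2, the muscle protein melusin that binds the tail of Itgb1, by -0.45. Ptk2 had intensities of 888, 883 and 785 in sham and 680, 692 and 554 in tail-suspension, with an adjusted p of 0.0215 by limma. Ptk2b, a kinase related to Ptk2, had the highest difference of the list, 0.90, and did not pass (adjusted p = 0.0561).

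Of 24 partners of laminin in the basement membrane, 22 were tested, 2 rose and 8 fell (9.09% and 36.4%, beside the same 10.5% and 9.8%), with a median difference of -0.46. Among the falls, Col15a1 and Col4a3 were well above background throughout sham only, and the filter let them through by that group. Among the 19 partners well above background on all 6 arrays, 9 passed, counting both directions. Ntn1, a netrin related to laminin chains, rose by 1.44 (SE 0.32, limma adjusted p = 0.0274), and Tinagl1, a matrix glycoprotein, by 0.83. The largest falls past the threshold were those of Col15a1, Col4a3 and Frem2. Col15a1, a collagen that links basement membranes to the matrix around them, had no tail-suspension array well above background, and the bound puts it at least 3.89-fold lower (measured log2 means -2.48 and -5.29, adjusted p = 0.00449 by limma). Col4a3, a type IV collagen chain, had a fitted difference of -1.25 (limma adjusted p = 0.0267). Only 1 tail-suspension array of 3 was well above background, so -1.25 is no measured fold. Frem2, a matrix protein of epithelial basement membranes, had intensities of 378, 470 and 427 in sham and 195, 254 and 214 in tail-suspension, a difference of -1.16 (adjusted p = 0.00373). The other 5 falls, named although they lie outside the largest 3, were Sparc, Smoc2, Col4a1, Col4a4 and Col4a2, between -0.92 and -0.51.

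Of 27 other extracellular ligands of integrins, 19 were tested, 3 rose and 3 fell (15.8% each, beside 10.5% and 9.8%), with a median difference of -0.094. Ctgf, a matricellular growth factor, had intensities of 4687, 4329 and 4284 in sham and 29690, 26820 and 34480 in tail-suspension. The rise of Ctgf was 2.56 on the log2 scale (SE 0.12, limma adjusted p = 0.000651), with groups far apart. Vwf, the ligand of the platelet receptors, rose by 0.99 and Fbln5, an elastic fibre protein, by 0.77. Vtn, which codes for vitronectin, fell by 0.59 on the log2 scale, Ltbp1, a latent TGF-β binding protein, by 0.47 and Tnxb, a tenascin, by 0.41. Edil3, Npnt and Tnc, ligands of the Itgav, Itga8 and Itga9 receptors, were not well above background on any array.

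Of 12 endothelial markers, all tested, 2 rose and 5 fell, with a median difference of -0.26. Over all tested gene names 10.5% rose and 9.8% fell, with a median of -0.0076, and these shares stand beside each count of this paragraph. The summed endothelial levels, to which bright genes add most, were 229 to 242 in sham and 220 to 244 in tail-suspension (118 to 127 and 132 to 147 without the brightest, Egfl7). Of 10 fibroblast markers 1 fell and none rose past the limma threshold (summed levels 283 to 301 and 280 to 354, or 70.4 to 93.9 and 33.3 to 64.1 without the brightest, Dcn, with 1 higher and 4 lower at an unadjusted p under 0.05). Of 10 smooth muscle and pericyte markers, 1 fell and none rose (100 to 123 and 109 to 137, with 2 higher and 1 lower unadjusted). Of the 10 cardiomyocyte markers 1 fell, and their summed level was 5516 to 5916 in sham and 5086 to 5215 in tail-suspension. The part of these cell types in the falls of Itga1, Itga6, Itga7, Itga9 and Itga11 was not tested.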

How the data were processed

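The authors deposited the scanner output of 6 arrays, in which Agilent Feature Extraction 10.7.1.1, per the submitters' processing notes, wrote for each spot a background-corrected intensity, the processed intensity. A table of log2 values of these arrays was deposited as well, whose columns shared a median of 4.32. The authors' normalization is not given in the sources used here. Left out were control spots and those flagged as outliers (146 to 212 per array, none of an integrin or laminin). The log2 processed intensity minus the 75th percentile of the array was fitted with lmFit and eBayes of limma 3.58.1 in R 4.3.3, over both groups and without covariates, with Benjamini-Hochberg adjustment over 28032 probes and a threshold of 0.05. A gene was read from its brightest probe, and probes counted as above background where at least 50% of their spots did. No spot was saturated, and the number of arrays limits the precision. All 37 names matched the RefSeq table of GRCm38.p6, used for names only. The steps were tested on simulated data.

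Named were every integrin or laminin with a probe past the threshold, chains known from heart muscle, vessels, leukocytes and platelets, and the 3 largest changes in each direction of each list of adaptors, basement membrane partners and other ligands. The remaining genes (Itga2, Itga10, Itgad, Itgb4, Itgb8, Lama1 and Lamb3) were named beside these. Counts cover all 37 genes, of which 1 is not reported here. The members and all lists were chosen with earlier results of these data known. Alternatives were normexp background correction (offset 50), quantile normalization, another percentile, the authors' log2 values, no filter and a stricter one, outliers kept, robust eBayes with an intensity trend, the methods' t-test, the replicate number and the slide row as blocks, the mean of all probes of a gene, and each array left out in turn.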

Additional observations from a re-analysis of the deposited data

How the results depend on the processing

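Among the 18 alternatives, Itgb6 and Itga6 kept their direction throughout and passed in 17, failing with the slide row as a block. Lamc3 passed in all 17 that tested it, but its tail-suspension readings were not well above background, and the filter let it through by sham alone. Its number of passes is therefore no measure of how firm its fall is. Itgb5 passed in 16, Itga7 in 15, Itga9 in 13, Itga1 in 12, Itga11 in 10 and Itgb3 in 9, each always in the same direction. Genes that did not pass did so in few alternatives: Lama2 and Lamb1 under the intensity trend with robust eBayes, Lamb3 there, under normexp and without sham replicate 1, Itga5 by the methods' t-test (adjusted p = 0.0339), and Itgb2 without tail-suspension replicate 2. Under no scaling was the median difference of all genes larger than 0.053 in size (-0.053 under normexp, against -0.0076 in the main fit). Levels not well above background are bounds, and 3 arrays a group limit what small differences can pass.

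Without the filter on dim probes, which let in all 55681 probes, 1041 probes were higher and 790 lower. Of the 37 integrins and laminins, 2 were then higher and 3 lower, and 1 adaptor, 6 basement membrane partners and 3 other ligands passed. The settings that follow, also those with an array left out, kept the main filter, with 28032 probes and 31 integrins and laminins. The methods' t-test after adjustment gave 1532 and 1248 probes, 3 integrins and laminins higher and 4 lower, 2 adaptors, 6 basement membrane partners and 3 ligands. Without adjustment it gave 4 integrins and laminins higher and 9 lower. Normexp gave 5 adaptors. The slide row as a block gave 320 and 177 probes, 0 integrins and laminins higher and 2 lower (limma; 4 and 9 at an unadjusted p under 0.05), 0 adaptors (8 unadjusted), 1 basement membrane partner and 2 ligands, from 1 tail-suspension array. A replicate block on the number of the labels left 1714 probes higher and 1403 lower, 2 integrins and laminins higher and 5 lower, and 5 adaptors; the deviations of same-numbered arrays correlated at -0.02, -0.018 and 0.05, so the numbers were not taken as a pairing.

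With each array left out, probes higher ranged from 1008 to 2885 and lower from 749 to 2701, integrins and laminins higher from 1 to 4 and lower from 4 to 6, adaptors from 2 to 7, basement membrane partners from 7 to 12 and ligands from 2 to 5. Without sham replicate 2 the counts were 1008 and 749 probes, 1 and 4 integrins and laminins, 2 adaptors and 2 ligands.

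The sign turned only for genes that did not pass. Itgax was -0.076 under normexp, -0.59 with the row block, and between -0.18 and 0.49 with an array left out. Itgb4 was 0.56 with the row block and between -0.32 and 0.27 with an array left out, being 0.13 without sham replicate 2 and 0.02 without sham replicate 3. Itgb1 was -0.03 without sham replicate 2, -0.043 without tail-suspension replicate 1 and -0.01 without tail-suspension replicate 3. Itga3 was -0.041 under normexp, and Itga4 0.094 and Itga10 -0.015 with the row block. Itgam was 0.22 as the mean of its probes. The cause of these shifts was not tested.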
